A study of Mus musculus with 10 samples.

Results

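Gsk3a, Brsk1, Map3k10 and Tesk1 are 4 protein kinase genes that were among the most counted genes in the cortex of adult mice. They were chosen by their level over all 10 libraries, 4 of 7385 genes for which a count could be had, so their levels are described here and not tested. The tissue was a small piece of dissected cortex, part of 1 hemisphere, from mice on a C57BL/6 background. The 5 wild-type animals (wt/wt) were 442 to 663 days old, and the 5 animals homozygous for the dTPR allele of Stip1 (dTPR/dTPR), which lacks the TPR1 domain of STI1, were 541 to 630 days old. Both groups were otherwise untreated as far as the labels say, each library came from a single animal, and sex and litter are not given in the sources used here. The animals lacking TPR1 are called dTPR1 homozygous here, and how the allele was made is not given in the sources used here.

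STI1 is the co-chaperone that links HSP70 to HSP90, and TPR1 is the domain known for binding HSP70. Many kinases need HSP90, with its partner CDC37, to reach or keep an active fold, and GSK3 kinases are among the clients. GSK3A, the alpha form of glycogen synthase kinase 3, is active at rest and is switched off when AKT phosphorylates it; glycogen synthase, beta-catenin and tau are known substrates. BRSK1, also called SAD-B, is an AMPK-related kinase that LKB1 activates, and it is known for its role in setting axon from dendrite and for its place at presynaptic terminals. MAP3K10, also called MLK2, is a mixed-lineage kinase that acts at the top of the JNK cascade. TESK1 is a relative of the LIM kinases and phosphorylates cofilin, the protein that cuts actin filaments.

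The counts were taken as lying on the strand opposite to the transcribed gene, which is inferred from positions and not stated in the sources used here. In these libraries 94.2% of all counts lay at gene IDs whose exons face an exon of a gene on the opposite strand, so each kinase was measured at the ID that faces it and not at its own ID. CPM below are counts scaled to a common library size with TMM factors, which assume that most genes do not differ between libraries. Library totals ran from 667751 to 927242 counts. Stip1 itself had 0 to 8 counts per library at its own ID in either genotype, and 0 counted IDs face its exons, so its transcript and the deletion could not be checked. Of 14 listed neuronal markers, 6 had a facing ID under the rule used here, and all 6 were counted, among them Syp and Nefl. The others could not be measured. The summed level of the 6 ranged over 11664 to 16553 CPM among wild-type and 12616 to 18045 CPM among dTPR1 homozygous libraries. Of the glial markers, Bcas1 and Ermn (oligodendrocytes), Slc1a2 and Aldh1l1 (astrocytes) and Csf1r (microglia) were counted, while Olig1 and Cx3cr1 were at 0.

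The facing stretches lie in the 3′ part of each kinase gene. For each, the run of facing coding bases nearest the 3′ end is printed, to show which stretch of the transcript the count covers. In Brsk1 the facing stretches start 8882 bases before the 3′ end on the genome, and the printed run ends 6981 bases before it. All are on build GRCm38, from GENCODE release M21 transcripts, 5′ to 3′ on the strand of the kinase, in lower case with the stop codon in capitals where the stretch reaches it. The Gsk3a stretch is the coding end of its last exon (chr7:25228854-25228930, minus strand). That of Brsk1 is from an inner coding exon and holds no stop codon (chr7:4708897-4709016, plus strand), that of Map3k10 is from its last exon (chr7:27656664-27656786, minus strand), and that of Tesk1 is from its last exon too (chr4:43447375-43447497, plus strand).
Gsk3a: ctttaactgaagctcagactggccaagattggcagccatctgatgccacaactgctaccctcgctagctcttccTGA
Brsk1: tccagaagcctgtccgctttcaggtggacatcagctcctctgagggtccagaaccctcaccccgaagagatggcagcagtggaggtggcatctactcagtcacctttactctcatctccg
Map3k10: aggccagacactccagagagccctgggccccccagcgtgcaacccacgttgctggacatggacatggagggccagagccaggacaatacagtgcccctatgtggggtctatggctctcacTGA
Tesk1: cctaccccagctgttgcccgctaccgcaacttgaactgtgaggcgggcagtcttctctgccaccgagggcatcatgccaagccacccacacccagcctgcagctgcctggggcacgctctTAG

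Gsk3a (ENSMUSG00000057177.12, chromosome 7, 25228258 to 25237851) faces 9130221H12Rik, an annotated antisense transcript that lies inside its 3′ part (25228687 to 25230263). The pair shares 820 exon bases, which are 28.3% of the exon bases of Gsk3a. In the main coding transcript, with 11 exons, they fall in exons 9 to 11 and comprise 372 coding and 170 non-coding bases, and a further 278 bases belong to other annotated transcripts of Gsk3a. Both coding transcripts of Gsk3a are covered, so this count does not tell them apart.

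Brsk1 (ENSMUSG00000035390.16, chromosome 7, 4690604 to 4715997) faces Tmem150b, a gene of a transmembrane protein (4706832 to 4725249), over 1054 exon bases. These lie in 5 of its 19 exons, from exon 14 to exon 19, with 742 coding and 312 non-coding bases. Its coding transcripts of 1398 and 1216 bases have 0 of these bases, so the count says nothing of them, while the other 3 are covered by 39 to 1054 bases.

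Map3k10 (ENSMUSG00000040390.13, chromosome 7, 27656375 to 27674598) and Ttc9b (27653915 to 27657346) meet tail to tail over 612 bases, all in exon 10 of 10 of Map3k10, of which 320 are coding. Its coding transcript of 1621 bases has 0 of these bases, and the other coding transcripts have 323 and 612. Tesk1 (ENSMUSG00000028458.12, chromosome 4, 43441939 to 43448064) and the B cell gene Cd72 (43446462 to 43454628) also meet tail to tail, over 1423 bases of exon 10 of 10 of Tesk1, of which 881 are coding. The 3′ end lay inside the counted gene for Brsk1, Map3k10 and Tesk1 and not for Gsk3a, whose last bases run past 9130221H12Rik. Among all 7385 genes it did so in 48.6%. The facing exon bases were 58.5% G or C in Gsk3a, 58.8% in Brsk1, 62.9% in Map3k10 and 59.8% in Tesk1. Each of the 4 holds all of the exon bases opposite to its counted ID, where 90% was required. A second gene could still hold some of the same bases, which this share does not show.

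**Figure D1:**
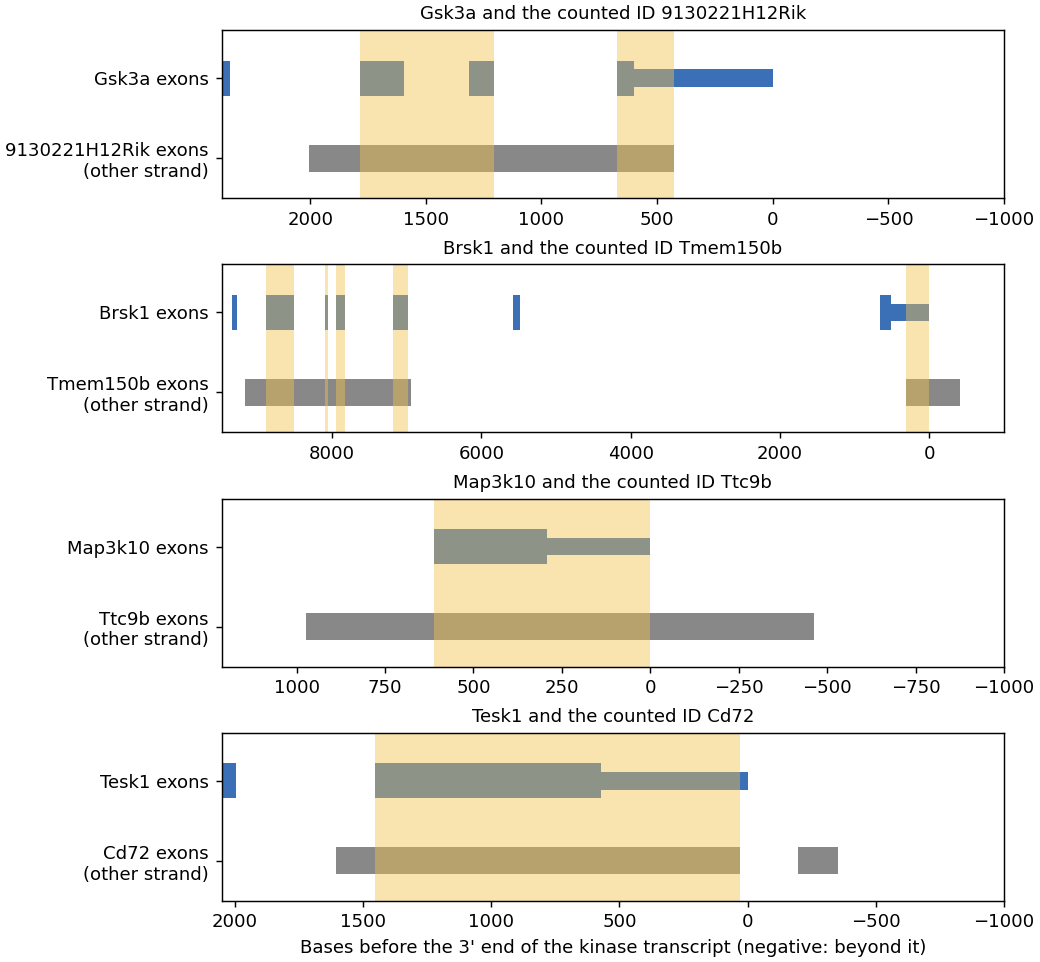
Exons of each kinase (blue, thick where coding) and of the counted ID on the other strand (grey), by distance in bases from the 3′ end of the kinase transcript, with the shared exon bases in yellow. Shared bases reach the last exon in all 4 kinases, and those of Gsk3a also cover bases between the drawn exons because another annotated transcript of Gsk3a holds them.

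The kinases' own IDs held almost nothing. The ID of Gsk3a itself had 1 to 25 counts per library, against 9770 to 20702 at 9130221H12Rik. Brsk1 had 0 to 6 counts at its own ID and 4077 to 9876 at Tmem150b, and Map3k10 had 2 to 19 at its own and 4456 to 10417 at Ttc9b. Tesk1 had the most at its own ID, 5 to 87 counts, against 4534 to 7239 at Cd72. The facing ID was the higher in 10 of 10 libraries for each of the 4. They were chosen for high counts at the facing ID, so this order follows in large part from the choice and is a description.

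The names of the counted IDs need care, since the assignment to a kinase rests on position and not on reads. Cd72 marks B cells. The other 9 B cell markers of the list had 175 counts at their own IDs over all libraries together, against 55754 at Cd72. Own IDs held 125 counts for the astrocyte, 664 for the oligodendrocyte and 28972 for the neuronal list. A low own-ID total thus cannot show whether B cells were present. At their facing IDs, Cd22 and Cd72 summed to a wild-type mean of 46.0 CPM. The dTPR1 homozygous mean was 29.0 CPM, and Pax5 was at 0. Whether part of the counts at Cd72 is RNA of Cd72 was not tested. Ttc9b is known as a gene of the brain, so counts at its ID could be read as Ttc9b RNA if the strand were as annotated. Read from the other strand, Ttc9b RNA would fall at the ID of Map3k10, which had a mean of 10.1 counts. That ID could catch only part of it, since 612 of the 2052 exon bases of Ttc9b (29.8%) face exons of Map3k10. Whether part of the counts at Ttc9b is RNA of Ttc9b was not tested.

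Gsk3a was at rank 3 of the 7385 genes, with a mean of 19110 ± 3916 CPM (SD, n = 10) or 1.67% ± 0.365 (SD, n = 10) of the counts of a library. Map3k10 was at rank 9 with 10483 ± 1772 CPM, Brsk1 at rank 10 with 10436 ± 1947 CPM, and Tesk1 at rank 12 with 8055 ± 879 CPM (SD, n = 10 each). Gsk3a was above the other 3 in 10 of 10 libraries. Brsk1 was above Map3k10 in 4 of 10 libraries, and their log2 ratio averaged -0.011 ± 0.189 (SD, n = 10), so the pair does not differ in level beyond the spread. Both were above Tesk1 in 9 of 10 libraries.

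These levels depend on how many bases face the counted ID. Per kilobase of facing exon bases, Gsk3a stood at 23305 CPM, Map3k10 at 17129 CPM, Brsk1 at 9902 CPM and Tesk1 at 5661 CPM, which keeps the order and widens the gap between Map3k10 and Brsk1. Reads outside the shared bases are included in the counts, so these figures are an approximation to a level per length.

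Only part of the kinases could be seen in this way. Of 393 serine/threonine kinases listed, 96 had a facing ID and 45 of these passed the filter on low counts, the 4 described here among them. The 4 held 70.0% of all counts assigned to the 96, whose median level was 11.7 CPM. Just below them came Mast1, a microtubule-associated kinase, at 4769 ± 921 CPM, and Cdc42bpb, a kinase that acts downstream of the GTPase CDC42, at 3721 ± 296 CPM. Among those that followed were Ilk at 2202 ± 239 CPM, Phkg2, a catalytic subunit of phosphorylase kinase, at 1374 ± 74 CPM, and Map3k12, a further mixed-lineage kinase known for its part in axon injury signalling, at 958.8 ± 141.5 CPM (SD, n = 10 each). In CPM, Tesk1 was 1.69 times as high as Mast1, the next in order. Gsk3b, Brsk2, Map3k9 and Limk1, close relatives of the 4, had no facing ID under the 90% rule and were not measured. Among relatives with a facing ID, Tesk2 was at 6.95 CPM (46 counts over all libraries) and the mixed-lineage kinase Map3k11 had 0 counts. These comparisons between kinases are not scaled by the bases that face each counted ID. How the order and the share of the 4 would stand per kilobase was not tested.

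**Figure D2:**
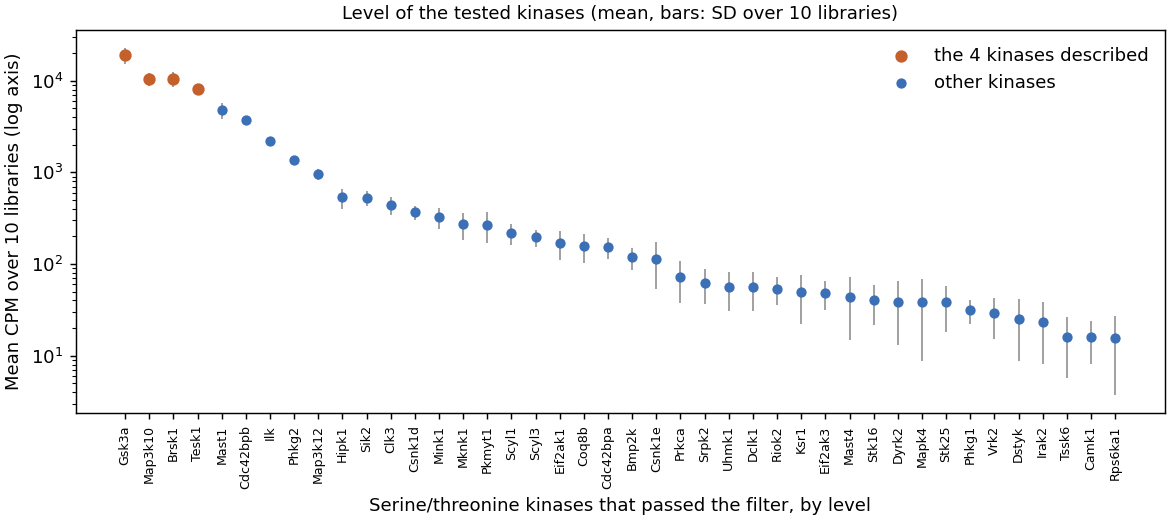
Mean CPM over 10 libraries (log axis, bars: SD) of 42 of the 45 serine/threonine kinases that passed the filter, ordered by level. The 4 kinases described (orange) lie between 8055 and 19110 CPM, above Mast1 at 4769 CPM and the others shown.

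Over 10 libraries the coefficient of variation was 20.5% for Gsk3a, 18.7% for Brsk1, 16.9% for Map3k10 and 10.9% for Tesk1. Counting error alone is 0.872% to 1.34% at this depth, if reads are taken as independent. Over the 132 tested genes of at least 1000 CPM the median was 16.9% within wild-type and 17.0% within dTPR1 homozygous animals. Brsk1 varied by 11.9% in wild type and 24.8% in dTPR1 homozygous animals, and Map3k10 by 10.8% and 21.6%. Gsk3a varied by 20.2% and 17.4%, and Tesk1 by 14.7% and 6.98%. The higher values of Brsk1 and Map3k10 rest on dTPR1 homozygous animal 2, without which they were 12.6% and 9.97%. A difference in spread between genotypes was not tested.

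The genotype comparison asks whether these kinase transcripts differ when STI1 lacks TPR1. Gsk3a was at 19139, 15335, 13270, 22144 and 16127 CPM in wild-type animals 1 to 5. It was at 20421, 17635, 23347, 26010 and 17669 CPM in dTPR1 homozygous animals 1 to 5. The highest value was that of dTPR1 homozygous animal 4 and the lowest that of wild-type animal 3, all 5 dTPR1 homozygous animals lay above the wild-type mean, and the groups overlapped. Means were 17203 ± 3474 and 21016 ± 3653 CPM (SD, n = 5 each), a log2 fold change of 0.29 ± 0.16 (SE, 95% interval -0.039 to 0.62). The adjusted p was 0.999 and the unadjusted p 0.081 in edgeR, and the exact permutation test of log2 CPM gave p = 0.119, two-sided. The interval reaches from 0.973-fold to 1.53-fold, so these 10 libraries allow a Gsk3a level up to 1.53 times that of wild type as well as no difference. In tissue of this kind, fewer cells of a type and less RNA per cell cannot be told apart.

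Brsk1 was at 10797, 9898, 8816, 9738 and 12056 CPM in wild-type animals 1 to 5. In dTPR1 homozygous animals 1 to 5 it was at 13716, 6475, 11636, 10622 and 10608 CPM. Animal 2 of the dTPR1 homozygous group was the lowest and animal 1 the highest of all, so the wild-type range lies within that of the other group. The log2 fold change was 0.048 ± 0.167 (SE, 95% interval -0.30 to 0.40, adjusted p = 0.999 in edgeR, exact permutation p = 0.960, two-sided).

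Map3k10 was at 11379, 11068, 9601, 8771 and 9699 CPM in wild-type animals 1 to 5. It was at 12446, 7077, 10480, 13088 and 11218 CPM in dTPR1 homozygous animals 1 to 5. Here too dTPR1 homozygous animal 2 was the lowest of all, while animals 1 and 4 of that group were above every wild-type animal. The log2 fold change was 0.10 ± 0.16 (SE, 95% interval -0.22 to 0.43, adjusted p = 0.999 in edgeR, exact permutation p = 0.667, two-sided). Without dTPR1 homozygous animal 2 it was 0.23 for Map3k10 (unadjusted p = 0.061 in edgeR) and 0.19 for Brsk1 (unadjusted p = 0.137 in edgeR), with adjusted p of 0.978 and 0.986.

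Tesk1 was at 8800, 9756, 6650, 7713 and 7659 CPM in wild-type animals 1 to 5. It was at 8130, 7201, 7685, 8341 and 8614 CPM in dTPR1 homozygous animals 1 to 5. Wild-type animals 2 and 3 were the highest and the lowest of all, and the dTPR1 homozygous values lay between them. The log2 fold change was -0.022 ± 0.130 (SE, 95% interval -0.30 to 0.25, adjusted p = 0.999 in edgeR, exact permutation p = 0.929, two-sided), which leaves room for 0.815-fold to 1.19-fold.

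**Figure D3:**
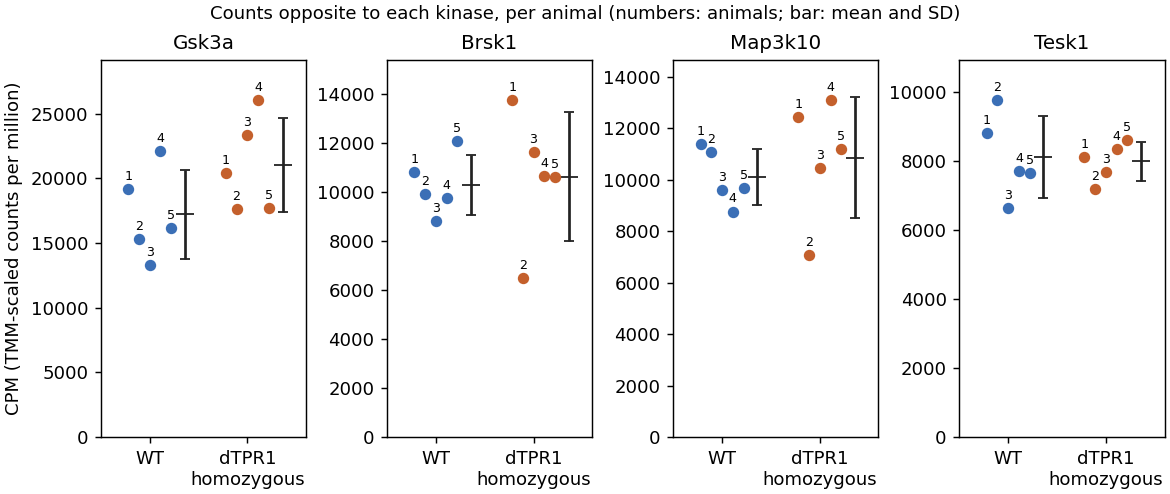
CPM at the ID facing each kinase in the 5 wild-type (blue) and 5 dTPR1 homozygous animals (orange), numbered by animal, with the mean and SD at the side. The groups overlap for all 4 kinases, and dTPR1 homozygous animal 2 is the lowest for Brsk1 at 6475 CPM and for Map3k10 at 7077 CPM.

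None of the 4 passed the threshold, and none separated the genotypes. All 4 passed the filter on low counts. Across the 2019 genes tested in edgeR, 0 passed an adjusted p of 0.05 (0%), 57 had an unadjusted p under 0.05 (2.82%), and in 7 the groups did not overlap (0.347%). The fold change was positive for 3 of the 4 kinases, against 50.2% of all tested genes and 57.6% of the 132 genes of at least 1000 CPM. Gsk3a stood at place 123 of 2019 by p, Map3k10 at 982, Brsk1 at 1546 and Tesk1 at 1733. DESeq2 was fitted to 5176 genes with no filter on low counts, and its default filter on mean count applied when p was adjusted. It called 0 with 138 at an unadjusted p under 0.05, and limma-voom called 0 with 90.

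Of the 45 tested serine/threonine kinases, 25 had a positive fold change (24 with upper-quartile factors), 0 passed and 1 had an unadjusted p under 0.05, and their median log2 fold change was 0.029 against 0.0017 over all tested genes. That kinase was Cdc42bpa, which acts on the cytoskeleton, with 179.8 ± 42.2 CPM (SD, n = 5) in wild-type and 127.9 ± 11.2 CPM (SD, n = 5) in dTPR1 homozygous animals. Its log2 fold change was -0.49 ± 0.23 (SE), with an adjusted p of 0.999 in edgeR and an unadjusted one of 0.0498, and 0 of 5 dTPR1 homozygous animals were above the wild-type mean. Mast1, the fifth in level, was at 4275 ± 846 and 5264 ± 763 CPM (SD, n = 5 each), with a log2 fold change of 0.30 ± 0.15, close to that of Gsk3a, and 5 of 5 dTPR1 homozygous animals above the wild-type mean. Further down the order, Cdc42bpb had 0.016 ± 0.126, Phkg2 0.029 ± 0.128, Map3k12 -0.061 ± 0.160 and Ilk -0.10 ± 0.14 (log2 fold change and SE).

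**Figure D4:**
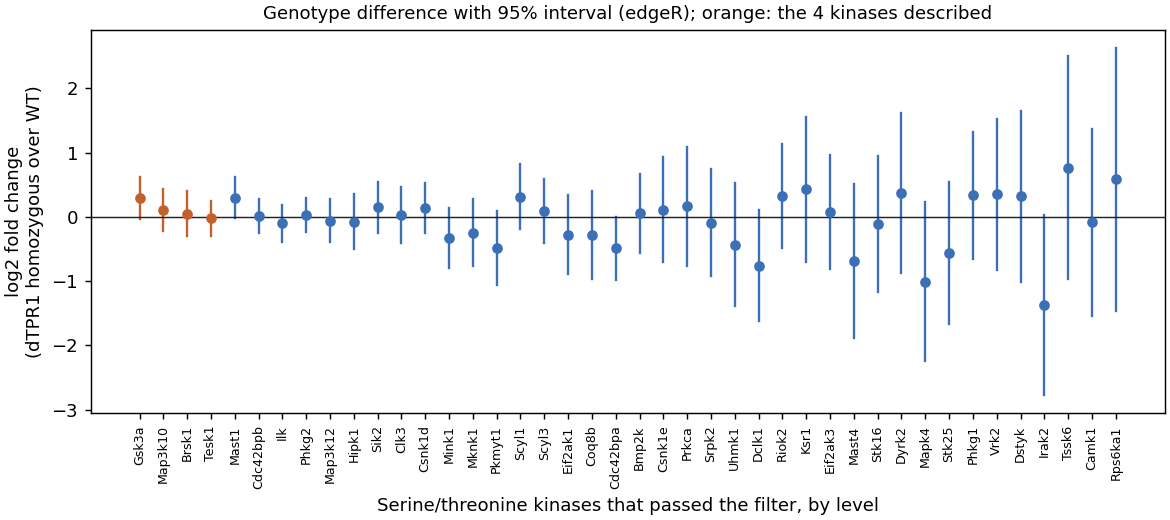
Log2 fold change, dTPR1 homozygous over wild type, with its 95% interval from edgeR for 42 of the 45 tested kinases, ordered by level from left to right. Intervals of the 4 kinases described (orange) all include 0, and intervals widen toward the less counted kinases at the right.

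Upstream and downstream of GSK3, 7 of 42 listed genes of Wnt and PI3K signalling were tested, 2 had a positive fold change and 0 passed, and their median log2 fold change was -0.12. With mitochondrial IDs left out, 3 of the 7 were positive. Ctnnb1, which encodes beta-catenin, averaged 380.1 ± 46.4 CPM over the wild-type and 309.0 ± 60.8 CPM over the dTPR1 homozygous animals (SD, n = 5 each), a log2 fold change of -0.30 ± 0.18 (SE). Axin2, Dvl1 and Dvl2 of the Wnt pathway and Tsc2 and Rptor of the mTOR pathway were also among the tested genes. For the AMPK-related family of Brsk1, 2 of 30 listed genes were tested and 0 passed: Sik2, a kinase of that family, had 0.15 ± 0.19 and Prkag2, a regulatory subunit of AMPK, -0.35 ± 0.36. Neither LKB1 (Stk11) nor Brsk2 was measured.

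In the JNK cascade around Map3k10, 4 of 29 listed genes were tested, 2 had a positive fold change and 0 passed. The transcription factor gene Jund was at 3041 ± 493.3 and 3289 ± 337.3 CPM in wild-type and dTPR1 homozygous animals. Rac1, a GTPase that activates mixed-lineage kinases, was at 1348 ± 150 and 1338 ± 158 CPM, and Mapk8ip1, the scaffold JIP1 that holds the cascade together, at 1275 ± 111 and 1331 ± 155 CPM. Their log2 fold changes were 0.11 ± 0.14, -0.011 ± 0.142 and 0.062 ± 0.139. Around Tesk1, 3 of 33 genes of the LIM kinase and cofilin list were tested and 0 passed. They were Cdc42bpb and Cdc42bpa, given above, and Cfl2, the muscle-type cofilin, at 86.9 ± 50.7 and 108.4 ± 42.7 CPM (0.32 ± 0.39). Of these 3, 2 had a positive fold change, 1 with upper-quartile factors.

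Of 42 listed HSP90 client kinases and their partners, 4 were tested, 2 had a positive fold change and 0 passed, with a median log2 fold change of -0.021. Eif2ak1, a kinase of the integrated stress response, averaged 186.1 ± 71.8 and 153.2 ± 41.7 CPM in wild-type and dTPR1 homozygous animals (log2 fold change -0.28 ± 0.29). Cdc37, Hsp90aa1 and Hsp90ab1 had no facing ID.

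Striatal genes should be scarce in cortex. Of 12 listed, 4 had a facing ID and all 4 were counted (Ppp1r1b, Penk, Syndig1l and Rarb). Their summed level was 889.9 to 6361 CPM among wild-type and 451.1 to 2604 CPM among dTPR1 homozygous animals. Wild-type animals 3 and 2 had the highest mean log2 CPM of the 4 genes, 10.4 and 9.85, and the lowest Gsk3a of all 10 animals. Animal 4 of the dTPR1 homozygous group had the lowest striatal level, 6.25, and the highest Gsk3a. Not all animals followed this order: wild-type animal 4 was at rank 3 of 10 in both striatal level (9.20) and Gsk3a (22144 CPM). Wild-type animal 5 was at rank 9 of 10 in striatal level (7.49) and at rank 8 of 10 in Gsk3a (16127 CPM). Over the 10 libraries, which share their scaling, Pearson's r between this level and log2 CPM after subtraction of the genotype means was -0.64 for Gsk3a, -0.52 for Brsk1, -0.43 for Map3k10 and -0.22 for Tesk1, given as a description. Taken by genotype, r of Gsk3a was -0.45 over the 5 wild-type and -0.94 over the 5 dTPR1 homozygous animals, and for Brsk1 it was -0.93 and -0.42. A difference in r between genotypes was not tested. With the striatal level in the model the log2 fold change of Gsk3a was 0.10 in place of 0.29 (unadjusted p = 0.547, adjusted p = 0.995 in edgeR), and leaving out wild-type animals 2 and 3 gave 0.14 (unadjusted p = 0.417, adjusted p = 0.996 in edgeR). Those animals are also the lowest in Gsk3a of the lower group, so leaving them out lowers the fold change whatever their striatal level. Of the 24 other settings and left-out libraries, 4 gave Gsk3a an unadjusted p under 0.05 in edgeR: no filter on low counts (0.015), at least 1 CPM in 5 libraries (0.047), without wild-type animal 4 (0.020) and without dTPR1 homozygous animal 2 (0.027), with adjusted p of 0.453 to 0.99960. The summed level of oligodendrocyte markers (3 of 12 assigned, Olig1 at 0) was 932.6 to 1802 CPM among wild-type and 1548 to 2520 CPM among dTPR1 homozygous animals, and that of astrocyte markers (2 of 10) 115.4 to 351.6 and 152.5 to 460.9 CPM. Endothelial and mural markers (3 of 11) summed to 211.9 to 943.4 and 216.9 to 330.4 CPM. All these ranges overlap between the genotypes, but the group means were not alike. In wild-type and dTPR1 homozygous animals they were 3098 and 1354 CPM for striatal and 1324 and 2041 CPM for oligodendrocyte markers. For astrocyte markers they were 197.2 and 307.5 CPM, and for endothelial and mural markers 406.8 and 292.3 CPM. Differences in these sums and the part of these cell types in the Gsk3a values were not tested.

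**Figure D5:**
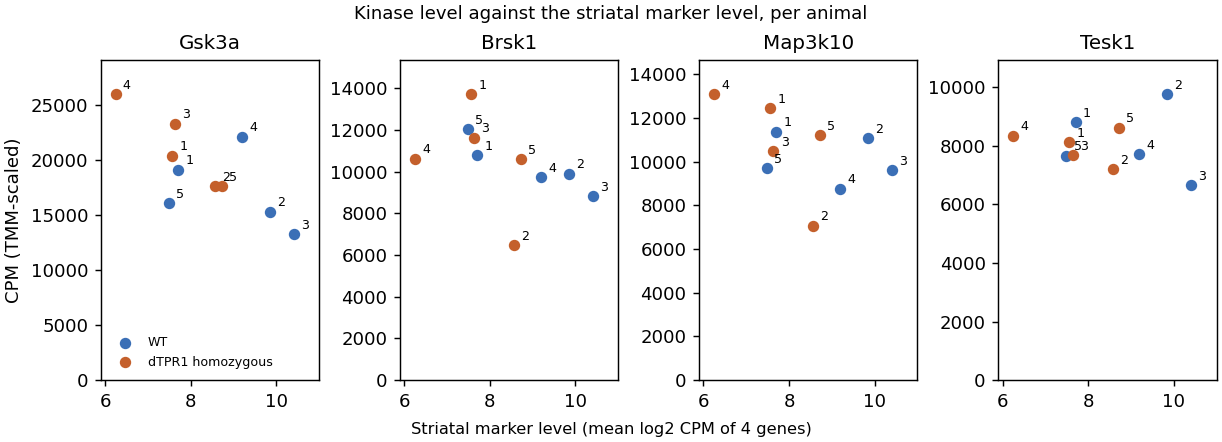
CPM of each kinase against the striatal marker level of the same library (mean log2 CPM of 4 genes) in wild-type (blue) and dTPR1 homozygous animals (orange), numbered by animal. For Gsk3a the animals with the highest striatal level, wild-type 3 and 2, are the lowest at 13270 and 15335 CPM. Wild-type 4, at a striatal level of 9.20, is among the higher at 22144 CPM.

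After subtraction of the genotype means, Pearson's r over 10 libraries was 0.78 for Brsk1 with Map3k10 and 0.60 for Map3k10 with Tesk1, and 0.23 to 0.37 for the other pairs. Without dTPR1 homozygous animal 2 the first of these was 0.17, so it rests on that library, while that of Map3k10 with Tesk1 ran from 0.57 to 0.72 with any 1 library left out. The lower values also move with single libraries: Gsk3a with Brsk1 ran from 0.11 to 0.49, Gsk3a with Map3k10 from -0.0057 to 0.58, Gsk3a with Tesk1 from -0.17 to 0.50, and Brsk1 with Tesk1 from 0.14 to 0.54. All points share library depth and dissection, and these values are descriptions.

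Genes most like each kinase were looked for among 809 genes of at least 100 CPM, by the same r over 10 libraries. For Gsk3a they were Ercc2, a helicase of DNA repair and transcription (0.88), C2cd4b (0.85) and Bhlhe40, a transcription factor of the circadian clock (0.83). For Brsk1 they were Tmem151b (0.94), B4galnt1, which makes complex gangliosides (0.90), and Icam5, an adhesion molecule of dendrites (0.90). Those of Brsk1 with B4galnt1 and Icam5 were 0.53 and 0.56 without dTPR1 homozygous animal 2. For Map3k10 they were Ppib, a cyclophilin of the endoplasmic reticulum (0.95), the aminopeptidase gene Npepps (0.92) and Ajm1 (0.89, and 0.48 without dTPR1 homozygous animal 2). For Tesk1 they were Nrxn2, a presynaptic neurexin (0.94), the methyltransferase gene Prmt3 (0.93) and the non-coding RNA Meg3 (0.91). These genes were picked for their r, so no p is given.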

How the data were processed

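Total RNA of a piece of cortex from 10 mice was taken up in TRIzol and made into single-end SENSE Total RNA-Seq libraries, per the labels' protocols. TopHat, HTSeq and DESeq2 with build GRCm38.p5 are named in the submitters' processing notes, and versions and strand setting are not given in the sources used here. The authors deposited whole-number counts for 53090 gene IDs without normalisation, and 0 entries name no gene. Library totals of 667751 to 927242 limit precision, and reads are not independent molecules.

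GENCODE M21 (build GRCm38) held 52403 of the IDs. Counts of an ID went to the gene with 90% or more of the opposing exon bases: 8188 IDs, 7385 genes and 88.0% of counts (29 IDs had a pair of such genes and went to the one with most bases). edgeR 4.0.16 in R 4.3.3 was run with TMM, filterByExpr and robust quasi-likelihood, and p was adjusted by Benjamini-Hochberg over 2019 tested genes. Levels in log2 CPM used a prior count of 2. Permutation tests (scipy 1.17.1) covered 252 arrangements, with 0.0079 the smallest p possible. The fit was tested on counts simulated with the means and dispersions of these data. It recovered 2 of 60 genes changed 1.5-fold, 20 of 62 changed 2-fold and 44 of 59 changed 4-fold, with 2 false calls. Most changes of 2-fold or less were thus missed, over genes of all levels. The median SE of the log2 fold change was 0.42 over all tested genes and 0.16 over those of at least 1000 CPM. It was 0.13 to 0.17 for the 4 kinases. Recovery at the level of the 4 kinases was not examined, so these rates do not describe them. Alternatives were other scalings, filters and minimum opposite shares, DESeq2 1.42.0, limma 3.58.1, covariates and left-out libraries.

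The 4 kinases, the gene lists and the tests were chosen with earlier results of these data known. Genes named are the 4 kinases, the 10 most counted kinases, in each other list the 2 most counted and the 2 with the smallest p, and the 3 genes most correlated with each kinase. Some genes that this rule names are not reported here. The p-values take the animals as independent. The labels do not say whether animals came from separate litters, so this could not be checked.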

Additional observations from a re-analysis of the deposited data

Results flagged for a closer look

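In each named gene and genotype the 5 animals were examined for a single one far from the other 4. This was so in 5 of 66 groups, where chance gives about 1 in 20, or 3.3, and none of the 4 kinases was among them. Of the 5, 4 are in genes picked for their correlation with a kinase, so the count cannot be read against chance. Animal 2 of the dTPR1 homozygous group was far below the others for B4galnt1, at 5559 CPM against 10136 to 10493, and for Icam5, at 227.1 CPM against 724.2 to 834.3. Both genes were picked for their correlation with Brsk1, which rests on that animal, so these low values restate the choice. Icam5 was far above the others in wild-type animal 5, at 1057 CPM against 586.8 to 615.9. C2cd4b, one of the genes most like Gsk3a, was far above the others in wild-type animal 4, at 304.6 CPM against 43.5 to 102.5. The kinase Ilk was far below the others in dTPR1 homozygous animal 3, at 1848 CPM against 2161 to 2214.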

How the results depend on the processing

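The 0 genes called held under 13 of 14 other settings and with each library left out. Without a filter edgeR called 2 genes, Fam184b and Prox1os, neither a kinase, and the cause was not tested. In the 6 lists 0 were called throughout. Gsk3a kept a positive fold change throughout, from 0.10 to 0.41 on the log2 scale, with adjusted p of 0.453 to 0.99995. The fold changes near 0 turned sign under some settings. With the striatal level in the model Brsk1 was at -0.11 and Map3k10 at -0.017, without wild-type animals 2 and 3 Brsk1 was at -0.034, and without a filter Tesk1 was at 0.0015. With 1 library left out, Brsk1 ran from -0.056 to 0.19, Tesk1 from -0.091 to 0.055, Map3k10 from 0.027 to 0.23 and Gsk3a from 0.20 to 0.41. The mean levels of all 4 kinases moved with the total used for scaling. On library totals and on totals without mitochondrial IDs, Tesk1 was at 6987 and 9062 CPM and Gsk3a at 16654 and 21474 CPM. Brsk1 was at 9071 and 11748 CPM and Map3k10 at 9087 and 11780 CPM. With each library left out in turn, Map3k10 and Brsk1 kept ranks 2 and 3 in 4 of 10 cases and changed places in the others. The animal numbers do not pair the groups by this check: deviations of same-numbered animals correlated from -0.54 to 0.47 over 132 genes, and in 1 of 5 numbers, animal 2, the wild-type animal was most like its own number. With that number as a replicate block 0 genes were called, and the log2 fold changes were 0.29 for Gsk3a, 0.016 for Brsk1, 0.082 for Map3k10 and -0.012 for Tesk1.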
